A study of Danio rerio with 6 samples.

Results

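The exon junction complex (EJC) and the mRNA export machinery that is loaded onto RNA together with splicing were followed through 10 genes: the EJC core genes *eif4a3*, *rbm8a*, *magoh* and *casc3*, the THO complex genes *thoc1*, *thoc2*, *thoc3*, *thoc5* and *thoc7*, and the export receptor gene *nxf1*. The genes were taken by symbol, with no cut on a measured value, but the choice was made with earlier results of these data known. All 10 symbols were found among the 36155 genes of the deposited tables, each at a single identifier, and all 10 passed the filter on low counts. The RNA came from zebrafish of strain AB* at 36 hours post fertilization (hpf), with 3 libraries of *prpf31*-/- embryos and 3 of *prpf31*+/+ siblings, all bred from *prpf31*+/- parents. Each embryo was typed from its head, so the RNA is that of the dissected tail only, from pools of embryos of 1 genotype. Blood-forming tissue is part of it, namely the aorta-gonad-mesonephros and the caudal hematopoietic tissue. The mutants carry a CRISPR/Cas9 knockout of 1 line that is predicted to truncate Prpf31, a protein of the spliceosome. Because the mothers were heterozygous, embryos of either group could hold maternal *prpf31* product, which was not measured here. The sources do not state whether each library was made from its own clutch, so p-values measure only the spread between these libraries.

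The EJC is left on spliced mRNA a short distance upstream of each exon-exon junction. Its core consists of the DEAD-box ATPase eIF4A3, which clamps the RNA, the heterodimer of Rbm8a (Y14) and Magoh, which locks the clamp, and Casc3 (MLN51, Barentsz), which stabilizes it. The complex takes part in mRNA export, localization and translation and in nonsense-mediated decay (NMD), and it influences splicing itself. THO is the multisubunit core of TREX, the complex that couples transcription and splicing to export by recruiting an RNA helicase and adaptor proteins. The adaptors hand the mRNA to the heterodimer of Nxf1 and its Nxt partner, which carries it through the nuclear pore.

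Library totals ranged from 21809870 to 23789933 counts. Pearson correlations of log CPM (counts scaled to a library size of 1e+06 with TMM factors) were 0.980 to 0.983 among siblings and 0.969 to 0.983 among mutants, against 0.961 to 0.969 between groups. *prpf31* itself had 844, 850 and 854 counts in siblings and 475, 576 and 535 in mutants. Its log2FC, the log2 of the mutant over the sibling level fitted by edgeR, was -0.66, and the quasi-likelihood test gave an adjusted p = 0.00104 (edgeR). Each value is an average over all tissues of the tail, and fewer cells of a type and less RNA per cell cannot be told apart. Of 7 red blood cell markers looked for, 5 were tested and 3 fell, with a summed level of 1654 to 2003 CPM in siblings and 1077 to 1329 CPM in mutants. The 3 were the globin genes *hbae3*, *hbbe1.1* and *hbbe2*, and *hbae3* alone made 1138 to 1413 CPM in siblings. The other 2 tested, *gata1a* (log2FC 0.26) and *slc4a1a* (-0.20), did not pass. Of 7 spinal cord and neural markers, 4 were tested and 2 fell (754 to 885 against 608 to 631 CPM), and *islr2* and *mnx1* were listed at 0 in every library. The 2 that fell were *sox3* and *gfap*, while *elavl3* (log2FC -0.23) and *nefma* (-0.045) did not pass. The summed level of 6 vessel markers was 177 to 193 CPM in siblings and 170 to 176 in mutants, with 1 of 6 called lower. That of 6 blood stem and progenitor markers was 34.0 to 35.4 and 29.3 to 33.3, with 0 of 6 called. Most of the latter sum was *tal1* (13.6 to 14.9 CPM in siblings) and *lmo2* (12.8 to 14.9). The fitted log2 changes of mutant over sibling were -0.20 for *tal1*, -0.29 for *lmo2*, -0.56 for *runx1* and -0.28 for *gata2b*. They were 0.22 for *myb* and 0.32 for *gfi1aa*. Summed levels of muscle markers overlapped between groups, as did those of skin, notochord, yolk and liver, and head. Within the yolk and liver list, 4 of 7 markers were tested, of which 2 were called higher and 1 lower, while 0 were called in the other 4 lists. The 12 head, eye and brain markers together reached 47.0 to 69.4 CPM, and *rho* was at or near 0. Genes of the mitochondrial genome took 4.19% to 4.35% of the counts in siblings and 4.78% to 5.62% in mutants (p = 0.1 by a two-sided exact permutation test, the lowest value this design of 3 and 3 can give). The part of these differences in the values below was not tested.

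The 10 genes did not move together in *prpf31*-/- tails. The EJC core genes *eif4a3*, *rbm8a* and *magoh* rose, while *thoc2*, the scaffold gene of THO, and *nxf1* fell. The other 5, *casc3*, *thoc1*, *thoc3*, *thoc5* and *thoc7*, did not pass the test. Over all 21876 tested genes, 5.58% were called higher and 4.49% lower at an adjusted p under 0.05. The 3 higher and 2 lower among 10 thus stand beside a background of 10.1% called in either direction. The 10 genes lie at percentiles 59.9 to 98.5 of mean FPKM (counts per length of gene), so this background holds many genes of lower level. With a minimum of 50 counts in 3 libraries, 1211 of 16670 genes were called higher and 1042 lower. The 10 genes were chosen with earlier results known. The median log2FC was 0.21 over the 10 genes and -0.0048 over all tested genes. Without mutant replicate 3, only *eif4a3* was called higher and only *nxf1* lower among the 10, in a comparison in which the calls over all genes fell from 1220 to 600 higher and from 983 to 332 lower.

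**Figure D1:**
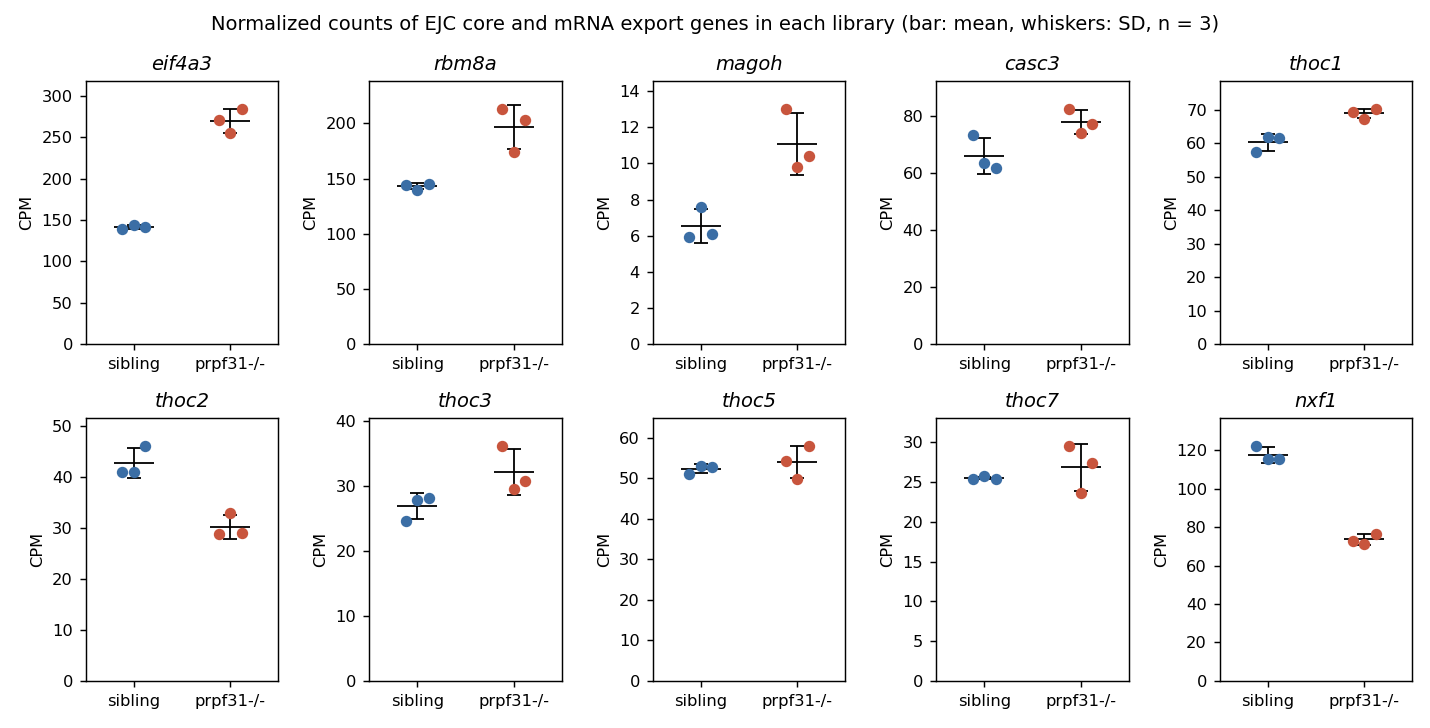
Normalized counts (CPM, vertical axis starting at 0 in each panel) of the 10 genes in the 3 sibling (blue) and 3 *prpf31*-/- (red) libraries, with the mean as a bar and the SD as whiskers. The gap in CPM between the nearest libraries of the groups is widest for *eif4a3*, at 139 to 144 CPM in siblings and 255 to 284 CPM in mutants. It is next widest for *nxf1*, at 115 to 122 and 71.2 to 76.7 CPM. The groups overlap for *thoc5* and *thoc7*.

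*eif4a3* (ENSDARG00000102978), the ATPase gene of the EJC, had the largest change of the 10. It lies on chromosome 11 of GRCz11 from 44878571 to 44898129, on the minus strand. Its counts were 3190, 3198 and 3162 in siblings and 5489, 5814 and 6613 in mutants. In CPM this was 139, 144 and 142 in siblings and 270, 255 and 284 in mutants, so the lowest mutant library was well above the highest sibling library. The mean went from 142 ± 2.28 to 270 ± 14.6 CPM (SD, n = 3 each), 1.90 times the sibling level (95% interval 1.70 to 2.12). The log2FC was 0.93 (SE 0.0712, edgeR adjusted p = 3.4e-05), and the call held in all 15 alternative analyses. Whether reads of *eif4a3* were in part shared with the translation initiation factor genes of the same family was not tested. Those genes encode related ATPases that unwind mRNA for the ribosome. Of these, *eif4a1a* had 608 ± 40.8 CPM in siblings and 703 ± 44.0 in mutants (SD, n = 3 each) and did not pass (log2FC 0.21, edgeR adjusted p = 0.145). *eif4a2* rose from between 36.4 and 39.4 CPM in siblings to between 57.1 and 59.5 CPM in mutants, a log2FC of 0.62 (edgeR adjusted p = 7.2e-04), and *eif4a1b* had at most 1 count in any library. These paralogs were named after their values were seen.

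*magoh* (ENSDARG00000038635, chromosome 8 from 21133307 to 21135732, plus strand) encodes a subunit of the heterodimer and was the least abundant of the 10 genes in counts. It had 136, 169 and 135 counts in siblings and 264, 224 and 242 in mutants. The CPM were 5.93, 7.59 and 6.07 in siblings and 13.0, 9.81 and 10.4 in mutants, with no overlap between the groups. The mutant level was 1.69 times the sibling level (95% interval 1.30 to 2.20), a log2FC of 0.76 (SE 0.170, edgeR adjusted p = 0.0208). Its call was the weakest of the 5. Among the 6 fits without 1 library, it was lost without sibling replicate 1 (edgeR adjusted p = 0.0914), without sibling replicate 3 (0.0694) and without mutant replicate 3 (0.0643), although the log2FC stayed between 0.62 and 0.88.

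*rbm8a* (ENSDARG00000016516), which encodes the partner of Magoh in the heterodimer, had the highest CPM of the 10 genes in siblings together with *eif4a3*. Its CPM were 145, 140 and 145 in siblings and 213, 174 and 203 in mutants. The mutant libraries lay above all sibling libraries and were more spread out, at 197 ± 20.1 against 143 ± 2.97 CPM (SD, n = 3 each). The log2FC was 0.46 (SE 0.0852, edgeR adjusted p = 0.00867), with a 95% interval of 0.27 to 0.65. The call was lost without mutant replicate 3 (edgeR adjusted p = 0.0553) and held in the other 14 alternatives. *rbm8a* lies on the plus strand of chromosome 16 from 45922175 to 45930077, and it is the only one of the 10 genes on the chromosome of *prpf31*, 13.8 Mb from it. Of 891 tested genes on chromosome 16, 9.20% were higher and 14.4% lower, against 5.42% and 4.07% of 20985 genes elsewhere. Of 156 other tested genes within 5 Mb of *rbm8a*, 9.62% were higher and 8.97% lower. The share of sequence linked to *prpf31* in the change of *rbm8a* cannot be told apart from that of genotype in these libraries.

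*casc3* (ENSDARG00000029911, chromosome 3 from 23428953 to 23461954, minus strand) was the core gene that did not pass. Its CPM were 73.3, 63.3 and 61.6 in siblings and 82.4, 73.9 and 77.2 in mutants. The lowest mutant library lay just above the highest sibling library. The log2FC was 0.24 (95% interval 0.04 to 0.43, edgeR adjusted p = 0.129), and *casc3* passed in 0 of 15 alternatives. The groups did not overlap, with mutants above siblings, in 15.2% of all tested genes, the background for the 6 of the 10 genes that showed this.

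*nxf1* (ENSDARG00000055076), the gene of the main mRNA export receptor, fell. It lies on the minus strand of chromosome 21 from 26665014 to 26677834. Counts were 2802, 2568 and 2564 in siblings and 1480, 1625 and 1787 in mutants, and the CPM were 122, 115 and 115 in siblings and 72.9, 71.2 and 76.7 in mutants. The highest mutant library was thus far below the lowest sibling library. The mean went from 118 ± 4.01 to 73.6 ± 2.82 CPM (SD, n = 3 each), with a log2FC of -0.68 (SE 0.0706, edgeR adjusted p = 2.98e-04). The mutant level was 0.626 of the sibling level (95% interval 0.561 to 0.698), and the call held in all 15 alternatives. The counts are summed over every transcript form of a gene, and in mammals *NXF1* is known for a form that keeps an intron, so a change in one form cannot be told from a change in another here.

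*thoc2* (ENSDARG00000037503, chromosome 14 from 12391871 to 12486627, plus strand) was the only THO gene that changed past the threshold. Its CPM were 40.9, 41.0 and 46.0 in siblings and 28.7, 32.8 and 28.9 in mutants, which did not overlap. The mean went from 42.6 ± 2.94 to 30.1 ± 2.31 CPM (SD, n = 3 each), with a log2FC of -0.50 (SE 0.0926, edgeR adjusted p = 0.00860). The call was lost without mutant replicate 3 (edgeR adjusted p = 0.0548). In 15.4% of all tested genes the mutant libraries were all below the sibling libraries.

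The other THO genes, which encode subunits that assemble around the scaffold, did not pass the test. *thoc1* (ENSDARG00000088246, chromosome 2 from 2772447 to 2790493) had 57.3, 61.9 and 61.6 CPM in siblings and 69.3, 67.3 and 70.2 in mutants. Its log2FC was 0.19 (95% interval 0.03 to 0.35, edgeR adjusted p = 0.129) with no overlap between groups. *thoc3* (ENSDARG00000056517, chromosome 14 from 25505468 to 25510955), which encodes a WD-repeat subunit, had 24.6, 27.8 and 28.2 CPM in siblings and 36.2, 29.6 and 30.8 in mutants. The groups did not overlap, and mutant replicate 1 was the highest. Its log2FC was 0.26 (95% interval 0.02 to 0.50, edgeR adjusted p = 0.158). For *thoc5* (ENSDARG00000038290, chromosome 25 from 3759553 to 3787221) the groups overlapped, at 51.1, 53.1 and 52.8 CPM in siblings and 54.1, 49.9 and 57.9 in mutants. Its log2FC of 0.045 had a 95% interval of -0.13 to 0.22. For *thoc7* (ENSDARG00000015394, chromosome 11 from 19603251 to 19611356) the mutant libraries lay on either side of the siblings, at 25.4, 25.7 and 25.4 CPM in siblings and 29.5, 23.7 and 27.3 in mutants. Its log2FC of 0.074 had a 95% interval of -0.15 to 0.30. For *thoc5* and *thoc7*, changes as large as that of *nxf1* or *thoc2* thus lay outside the interval.

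**Figure D2:**
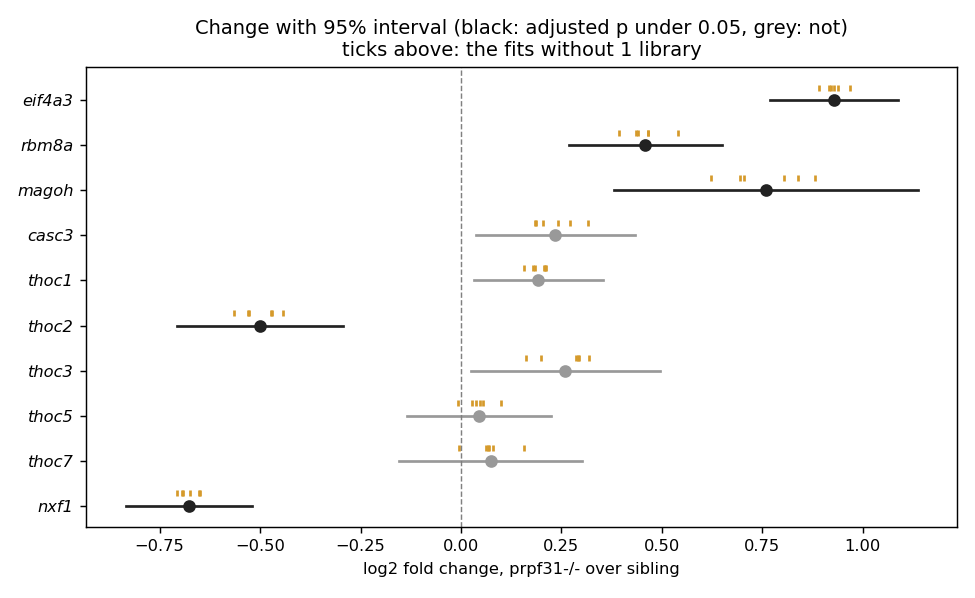
Log2 fold change of *prpf31*-/- over sibling (horizontal axis) for each of the 10 genes, with the 95% interval from edgeR, black where the adjusted p was under 0.05 and grey where it was not. Orange ticks above each line give the 6 fits that leave out 1 library. *eif4a3* (0.93), *magoh* (0.76) and *rbm8a* (0.46) are to the right of 0, *thoc2* (-0.50) and *nxf1* (-0.68) to the left, and ticks of *thoc5* and *thoc7* fall on either side of 0.

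Levels of different genes were compared on the deposited FPKM, which are per length of gene. In siblings *rbm8a* was the highest at 152 ± 2.41 FPKM, followed by *eif4a3* at 39.8 ± 0.805 (SD, n = 3 each). Next came *thoc7* at 32.5 ± 0.382 and *thoc1* at 28.6 ± 1.30 FPKM (SD, n = 3 each). *nxf1* (18.1 ± 0.571), *thoc3* (18.0 ± 1.39) and *casc3* (17.4 ± 1.62) did not differ beyond their spread. *thoc5* (12.2 ± 0.296), *magoh* (8.83 ± 1.29) and *thoc2* (5.36 ± 0.358 FPKM, SD, n = 3 each) were the lowest, with no overlap of their libraries. Transcript levels within the core were unequal, with *rbm8a* at 14.4 to 19.1 times the FPKM of *magoh*, its partner in the heterodimer. FPKM of genes as short as *magoh* (734 bases), *thoc7* (777) and *rbm8a* (937) depend strongly on the gene length used. In siblings *rbm8a* and *eif4a3* (3534 bases) had like CPM, at 143 ± 2.97 and 142 ± 2.28 (SD, n = 3 each), so their gap in FPKM reflects the lengths used. The order of genes by FPKM, in siblings and in mutants, depends on these lengths as well.

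In mutants *rbm8a* and *eif4a3* were again the highest and *thoc2* the lowest. *rbm8a* was at 185 to 226 and *eif4a3* at 71.7 to 79.7 FPKM. The *rbm8a* level was 3.67 to 3.92 times that of *eif4a3* in siblings and 2.58 to 2.97 times in mutants. *nxf1*, at 11.3 ± 0.414 FPKM (SD, n = 3), was now below *magoh* at 13.3 to 17.6 and overlapped *thoc5* at 11.7 to 13.5. A ratio of genes within a library does not depend on how libraries are scaled. The FPKM of *eif4a3* was 2.08, 2.28 and 2.25 times that of *nxf1* in siblings and 6.78, 6.54 and 6.77 times in mutants. The FPKM of *thoc1* was 5.28, 5.69 and 5.04 times that of *thoc2* in siblings and 9.09, 7.72 and 9.14 times in mutants, with no overlap between groups. These pairs were chosen after the values were seen and were not tested. The summed FPKM of the 4 EJC core genes was 217 to 219 in siblings and 290 to 342 in mutants. Most of this sum was *rbm8a*, at 149 to 153 FPKM in siblings and 185 to 226 in mutants. The summed FPKM of the 5 THO genes was 92.9 to 98.9 and 98.0 to 112, which overlap.

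**Figure D3:**
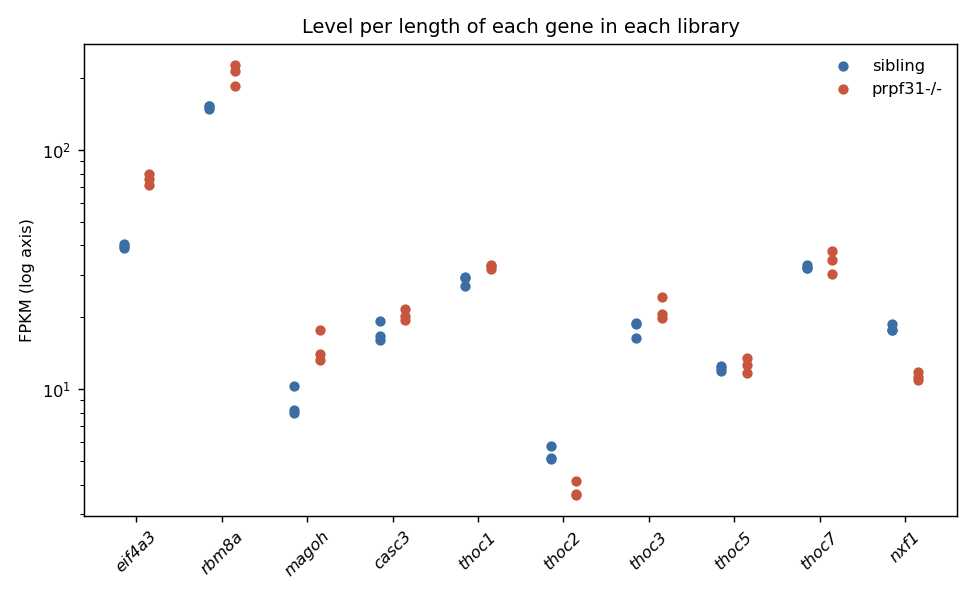
Deposited FPKM (log axis) of the 10 genes in each sibling (blue) and *prpf31*-/- (red) library, 1 point per library. *rbm8a* lies above the other 9 genes in either group, *thoc2* lies below them, and *nxf1* has a mean of 18.1 FPKM in siblings and 11.3 FPKM in mutants.

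Other genes of the same pathway were taken from 3 lists. Of 55 symbols, 44 were matched and 43 tested, of which 7 rose (16.3%), 2 fell (4.65%) and 34 did not pass, with a median log2FC of 0.058. Over all tested genes, 5.58% were called higher and 4.49% lower, so the share that fell was near that of all genes. Without mutant replicate 3, 4 of the other pathway genes were called higher and 0 lower. Among 10 tested genes of EJC assembly and periphery, 2 rose and 1 fell. *cwc22*, whose product brings eIF4A3 to the spliceosome, had 42.7, 45.4 and 42.1 CPM in siblings and 66.3, 75.3 and 74.9 in mutants, a log2FC of 0.73 (SE 0.0817, edgeR adjusted p = 4.7e-04). Its call held in all 15 alternatives. *acin1b*, which encodes an Acinus protein of the EJC periphery, rose by a log2FC of 0.30 (edgeR adjusted p = 0.0216), while its paralog *acin1a* was at -0.014 (adjusted p = 0.971). *pym1*, whose product takes the EJC off mRNA in the cytoplasm by binding the Rbm8a-Magoh pair, had 15.1, 11.6 and 10.4 CPM in siblings and 8.57, 7.01 and 7.77 in mutants. Its log2FC was -0.67 (edgeR adjusted p = 0.0340). The *acin1b* call was lost without any of the 3 sibling libraries or mutant replicate 3, and the *pym1* call without sibling replicate 1 or 2 or mutant replicate 2 or 3. *upf3a* and *upf3b*, whose products connect the EJC to NMD, did not pass (log2FC values 0.034 and -0.14).

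Among 17 tested genes of TREX, its adaptors and the cap-binding complex, 3 rose (17.6%) and 1 fell (5.88%) by edgeR. Of all tested genes, 5.58% were called higher and 4.49% lower, so the share that fell was near that of all genes. DESeq2 called 4 higher and 2 lower, and limma on FPKM with either pseudocount called 2 higher and 0 lower of 16. *zc3h11a*, which encodes a zinc finger protein associated with TREX, had 99.9, 100.5 and 97.0 CPM in siblings and 139, 146 and 143 in mutants. Its log2FC was 0.53 (SE 0.0668, edgeR adjusted p = 0.00103). *leng8* rose by a log2FC of 0.45 (edgeR adjusted p = 0.00385) and lies on chromosome 16. *ddx39b*, the gene of the TREX helicase UAP56, had a log2FC of 0.42 (edgeR adjusted p = 0.0344) and kept its call in 7 of 15 alternatives. Its relatives *ddx39aa* and *ddx39ab* were at 0.20 and 0.19 and did not pass. *chtopb*, on chromosome 16, fell at a low level, with 16, 25 and 21 counts in siblings and 4, 7 and 6 in mutants (log2FC -1.83, edgeR adjusted p = 0.0222), while the more abundant *chtopa* was at -0.044. Its call was lost without sibling replicate 2 or 3 or mutant replicate 1 or 3. *alyref*, the adaptor that passes mRNA from TREX to Nxf1, had 244, 228 and 192 CPM in siblings and 194, 152 and 168 in mutants, and did not pass (log2FC -0.37, edgeR adjusted p = 0.0670), although it was called lower in 6 of 15 alternatives, DESeq2 among them (DESeq2 adjusted p = 0.0221). The THO subunit gene *thoc6*, left out of the 10, was at -0.62 with an SE of 0.529 (edgeR adjusted p = 0.519).

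Among 16 tested genes of Nxf1 partners and the nuclear pore, 2 rose (12.5%) and 0 fell by edgeR, beside 5.58% and 4.49% of all tested genes. At an unadjusted p under 0.05 by edgeR, 1 was lower. DESeq2 called 4 higher and 0 lower, and limma on FPKM with either pseudocount called 1 higher and 0 lower. *seh1l*, a scaffold nucleoporin gene, had 76.5, 72.8 and 72.2 CPM in siblings and 103, 95.1 and 98.4 in mutants, a log2FC of 0.42 (edgeR adjusted p = 0.00537). *nup98*, whose product lines the pore channel, was at 0.34 (edgeR adjusted p = 0.0262), and its call held only in 1 of the 6 fits without 1 library. *nxt2*, a partner gene of *nxf1*, did not pass (log2FC -0.30, SE 0.310, edgeR adjusted p = 0.616).

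The EJC and export genes were set beside the U2 snRNP genes of SF3A and SF3B, which bind the branch point before the EJC is laid down. All 10 SF3 genes were called higher, against 5.58% of all tested genes, with log2FC values of 0.32 to 1.98 and a median of 1.00. In each fit without 1 library, 8 to 10 of them were called. The largest log2FC values belonged to *sf3a2* (1.98) and *sf3a3* (1.68). The EJC core genes had a median of 0.61 with 3 of 4 called higher, and the THO genes a median of 0.074 with 0 of 5 called higher and 1 lower by edgeR, DESeq2 and limma, and 2 higher at an unadjusted p under 0.05 by edgeR. Among 13 tested genes of NMD, the decay pathway that reads the EJC, 0 rose and 1 fell by edgeR, with a median of -0.041. At an unadjusted p under 0.05, 1 was higher, *etf1b*, which DESeq2 called and limma did not. The gene that fell was *smg9*, on chromosome 16 (log2FC -1.59, edgeR adjusted p = 1.5e-04). The 1 lower call per list was 20% of the THO genes and 7.69% of the NMD genes, against 4.49% in the full set of 21876. As only 5.58% of that set was called higher, 0 higher among 5 or 13 genes cannot set a list apart from it. These lists were chosen with earlier results of these data known, and the difference between them was not tested.

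**Figure D4:**
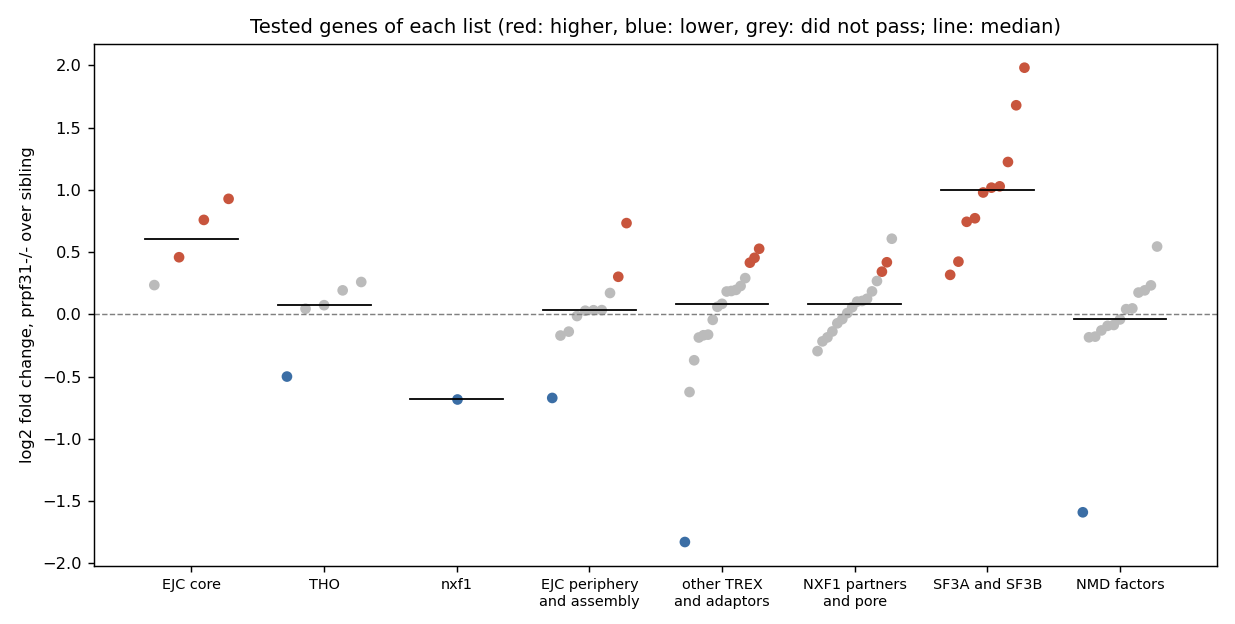
Log2 fold change of *prpf31*-/- over sibling (vertical axis) for each tested gene of the 8 gene groups on the horizontal axis, ordered by value within a group, red where called higher, blue where called lower and grey where not called, with the group median as a line. The EJC core (median 0.61, lowest *casc3* at 0.24) and the SF3 genes (median 1.00) lie above 0. Of the THO genes (median 0.074), 4 lie between 0.045 and 0.26 and *thoc2* at -0.50, and *nxf1* is alone at -0.68.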

How the data were processed

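RNA from 6 pools of zebrafish tails was sequenced by the authors, 3 libraries per group. Per the labels, the authors aligned reads with HISAT2 2.0.5 to GRCz11 and counted genes with featureCounts 1.5.0-p3 after base calling with CASAVA 1.8; the annotation release is not given in the sources used here. The deposited count files hold raw whole-number counts per gene, and the deposited FPKM files give those counts per gene length and per library constant (0.935 to 1.05 times the total count). The library kit does not mark strand; no gene of the files overlapped any of the 10 genes. No splicing values were used here.

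The test was the quasi-likelihood F test of edgeR 4.0.16 (R 4.3.3), run after filterByExpr and TMM scaling on a model that held genotype alone. P-values were adjusted by Benjamini-Hochberg over 21876 genes, with a threshold of 0.05. CPM are per TMM-normalized total. Total counts were 21809870 to 23789933 per library, and the common biological coefficient of variation was 15.5%. Gene by gene, this coefficient was lower for all 10 genes. It ran from 7.02% for *nxf1* to 9.90% for *thoc3*, apart from *magoh*, which was only just lower at 15.4%. The procedure was tested on simulated data. SE is the log2 fold change over the root of the F statistic. Other settings tried were DESeq2 1.42.0, scaling by RLE or by upper quartiles, a stricter minimum (50 counts in 3 libraries) or none, a block on replicate number, and the omission of each library. Limma 3.58.1 was run on log2(FPKM + 1) and on log2(FPKM + 0.1) for genes at FPKM 1 or more in 3 libraries, and on log2(FPKM + 1) for all genes. A size requirement of 1 on the absolute log2FC was also tried. Leaving out chromosome 16 was added after the data were seen. The 15 alternatives counted per gene exclude these size and chromosome settings.

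The 10 genes and the lists were chosen with earlier results of these data known. Genes named are the 10, *prpf31* and the called genes of each other list, up to 8 with the smallest adjusted p; any others were chosen with their values in view. The symbols *ddx19*, *tpra*, *tprb* and *nupl2* were added once the symbols in the files were known, before tests were run. Figures were drawn with matplotlib 3.10.9.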

Additional observations from a re-analysis of the deposited data

How the results depend on the processing

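Over 15 alternatives for each of the 10 genes, 150 comparisons in all, 142 kept the direction and the side of the threshold. The signs that turned were those of *thoc5* without mutant replicate 3 (log2FC -0.0082, up to 0.099 without another library) and *thoc7* without mutant replicate 1 (-0.0059, up to 0.16), neither of which was called in any fit. Of the 10 genes, 1 to 3 were called higher and 1 to 2 lower when 1 library was left out, and 0 higher and 0 lower when the absolute log2FC had to reach 1. Calls over all genes ranged from 600 to 1215 higher and from 332 to 990 lower without 1 library, and were 368 and 244 with the size requirement. The counts over all genes moved by more than 1.5 times without sibling replicate 1 (666 higher, 378 lower), sibling replicate 2 (705 and 416) or mutant replicate 3 (600 and 332). For the other pathway genes these counts were 4 to 8 higher and 0 to 2 lower without 1 library, and 0 and 1 with the size requirement. Limma on log2(FPKM + 1) and on log2(FPKM + 0.1) called 4 of the other pathway genes higher, and 1 and 0 lower, and limma on log2(FPKM + 1) with no filter called 1 lower. Leaving out chromosome 16 left 1 of them lower, since *chtopb* lies there. The cause of the losses without mutant replicate 3 was not tested.

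With the replicate number as a block, 698 genes were higher and 455 lower over all genes, 4 and 0 among the other pathway genes, and *magoh* lost its call (adjusted p = 0.0632 from edgeR). Deviations from the group means of libraries with the same number correlated at -0.0735, -0.121 and -0.0414. For libraries with different numbers the correlations were -0.0400 to 0.106. The labels give only the shared number. Whether libraries with the same number shared a clutch or a day is not stated, and these correlations cannot show it. Transcript forms were not separated.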
